A study of Mus musculus with 4 samples.

Results

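In the mouse mammary epithelial line NMuMG, derived from normal gland, 560 stretches of accessible chromatin were called in the vehicle list in complete medium, were not called after 2 h of TGFβ, and were called in a separate 10 min experiment on starved cells. They are 2.85% of the 19648 vehicle regions (95% Wilson interval 2.63 to 3.09%) and 44.3% of the vehicle regions without a TGFβ counterpart. Accessibility was measured by ATAC-seq, in which the Tn5 transposase cuts and tags open DNA. Cells in complete medium received vehicle or 5 ng/ml TGFβ1 for 2 h. In the 10 min experiment, serum and insulin were withheld for 6 h before vehicle or 5 ng/ml TGFβ1 was added for 10 min. The name of the 10 min list gives TGFβ and 10 min, while the descriptions of both the vehicle and the TGFβ sample of that experiment point to it. Which of its libraries were used for it is not given in the sources used here. Presence in the 10 min list may therefore mean presence after 10 min of TGFβ. For the 10 min TGFβ sample the labels conflict, with 2 h among its characteristics and 10 min in its title and protocol, and it was taken as 10 min. The labels hold 1 sample per condition. Each list is, according to the study's methods, a set of peaks that passed a reproducibility test between duplicates, with no read counts. The study's reporting summary names 1 pair of read files for each of these samples, but replicate files for the study's other ATAC-seq samples. What the duplicates behind these lists were is not settled. Medium, starvation and time therefore differ together between the 10 min list and the other lists and cannot be told apart.

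A region is an interval of a list after intervals under 150 bp had been dropped and gaps under 1000 bp had been joined. The 560 regions were selected on presence and absence in the lists: a vehicle region was taken if it overlapped no TGFβ region and overlapped a 10 min region by at least 1 bp. Absence from the TGFβ list and presence in the 10 min list are therefore not findings. Of all vehicle regions, 6.44% were absent from the TGFβ list and 87.6% were present in the 10 min list. The sets of vehicle regions used for comparison were 705 regions absent from both other lists (vehicle-only regions), 16642 regions present in both other lists (shared regions) and 1741 regions present in the TGFβ list but not in the 10 min list. As a check of the cell type, 4 of 8 epithelial genes had a vehicle region at a start site. These were Krt8, Krt18, Ocln and Grhl2, whereas Cdh1, Epcam, Cldn7 and Esrp1 had none, and Cdh1 had a region only in the 10 min list.

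TGFβ signals through receptor kinases that phosphorylate SMAD2 and SMAD3, which then bind DNA together with SMAD4 at short CAGA-type elements, often next to AP-1. AP-1 is a family of dimers of JUN, FOS and related proteins that bind many active enhancers in epithelial cells. CTCF is a zinc finger protein that binds a long, well-defined sequence, stops the extrusion of chromatin loops by cohesin and marks many boundaries between chromosome domains. Its binding sites are typically short, isolated stretches of open chromatin.

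Of the 19 motifs searched, CTCF was the 1 whose share in distal regions differed from both comparison sets under the main settings, so the 6 matches in the regions with the highest vehicle score are shown first. Each run is 60 bases of the NCBIM37 (mm9) reference, 5′ to 3′ on the strand of the match, with the match in capitals.
Hist1h4j, chr13:21826126-21826185, minus strand: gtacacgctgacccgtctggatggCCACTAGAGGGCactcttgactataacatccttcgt
Srxn1, chr2:151937819-151937878, plus strand: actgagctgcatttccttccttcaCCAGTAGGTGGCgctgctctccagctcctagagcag
Pak4, chr7:29355422-29355481, plus strand: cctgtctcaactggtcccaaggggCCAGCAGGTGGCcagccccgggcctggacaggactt
Gm15401, chr6:72586151-72586210, plus strand: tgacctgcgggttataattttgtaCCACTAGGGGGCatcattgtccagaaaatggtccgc
Bcorl1, chrX:45763468-45763527, minus strand: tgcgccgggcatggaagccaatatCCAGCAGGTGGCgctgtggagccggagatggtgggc
C130060K24Rik, chr6:65460445-65460504, plus strand: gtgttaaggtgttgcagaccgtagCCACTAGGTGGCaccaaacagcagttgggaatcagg
The names are those of the nearest protein-coding gene. The Pak4 region lay in an intron of Pak4, which encodes a p21-activated kinase, the Hist1h4j and Gm15401 regions lay at start sites, and the other 3 were intergenic. Hist1h4j encodes histone H4 and belongs to a family of near-identical genes, so reads there may not map uniquely. Srxn1 encodes sulfiredoxin, which reduces oxidised peroxiredoxins, and Bcorl1 encodes a transcriptional corepressor. In the order shown, the regions lay 556, 6034, 5597, 8089, 72 and 1470 bp from a TGFβ region. In the same order, the match centre minus the region's centre was 33, -38, -145, -162, -74 and -9 bp.

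A CTCF consensus match on either strand, within 200 bp of the region's centre, was found in 68 of the 560 regions, or 12.1% (9.69 to 15.1%). The share was 8.23% in vehicle-only regions and 2.01% in shared regions, and it was 2.63% over all vehicle regions. The same windows moved by 10 kb gave 0.179% for the 560 regions. The 560 regions were thus 10.1 percentage points above shared regions (95% Newcombe interval 7.68 to 13.1) and 3.92 points above vehicle-only regions (0.581 to 7.39). Away from start sites the difference was wider. Among distal regions, which lie over 1000 bp from any annotated transcript start, 14.4% of 418 held a match against 9.11% of vehicle-only and 2.86% of shared regions, differences of 5.25 points (1.29 to 9.46) and 11.5 points (8.43 to 15.2). Regions of the TGFβ list that the 10 min list lacked were close to shared regions, with 3.22% of the distal ones holding a match. All intervals cover the counting of regions only, and neighbouring regions are not independent. Whether the CTCF difference from vehicle-only regions held depended on the settings. It was -2.85 points with a minimum width of 300 bp, -2.05 points with peaks at or above each list's median score, and -0.193 points with the TGFβ list cut to the length of the vehicle list. In 4 more settings it stayed above 0 with an interval that included 0: 1.70 points (-1.03 to 4.45) with only touching or overlapping intervals merged, 3.42 (-0.157 to 7.20) with no TGFβ region within 1000 bp, 2.94 (-0.392 to 6.44) with 50% of the region covered at 10 min, and 2.41 (-0.762 to 5.73) with motif windows of 100 bp. The difference from shared regions kept its sign in the first 3 of these settings but was 1.83, 0.497 (-0.430 to 2.54) and 4.94 points.

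**Figure D1:**
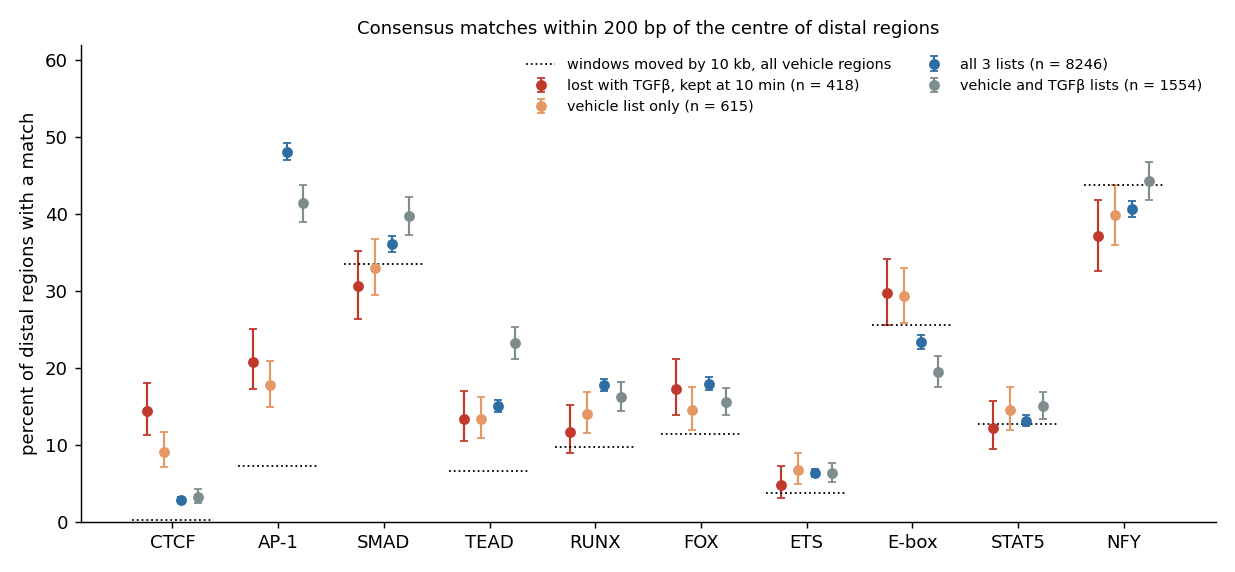
Share of distal regions with a consensus match within 200 bp of their centre (vertical axis, percent) for 10 motifs in 4 sets of vehicle regions; points are shares, bars are 95% Wilson intervals, and dotted lines give the share in windows moved by 10 kb for all distal vehicle regions. For CTCF the 560-region set stands at 14.4% against 2.86% in shared regions, and for AP-1 at 20.8% against 48.1%.

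The matches sat close to the middle of the regions. The distance from the match to the region's centre had a median of 23.5 bp, and 53 of 68 matches (77.9%) lay within 50 bp. In shared regions, which were wider, the median was 53.5 bp and 49.4% lay within 50 bp, while vehicle-only regions had a median of 16.0 bp. Each of the 68 regions held a single match, and 33 were on the plus strand. With 1 mismatch allowed, 30.9% of the 560 regions had a match, against 25.8% of vehicle-only, 8.91% of shared and 10.4% of all vehicle regions. The windows of the set moved by 10 kb then gave 5.36%. The difference from vehicle-only regions was 5.08 points (0.0929 to 10.1).

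**Figure D2:**
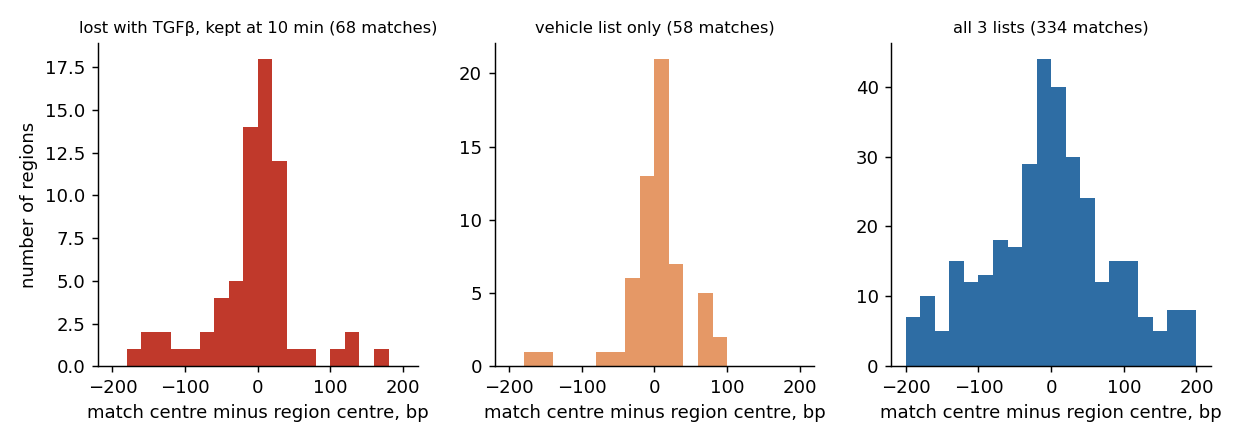
Position of the CTCF match nearest to the region's centre (horizontal axis, match centre minus region centre in bp, bins of 20 bp) against the number of regions, for the 560 regions, vehicle-only regions and shared regions with a match; the vertical scale differs between panels. Matches of the 560 regions gather around the centre, with a median distance of 23.5 bp, and those of shared regions spread further, with 53.5 bp.

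CTCF matches were not limited to regions of low score. The vehicle score is the peak caller's scaled reproducibility score, which runs here from 540 to a cap of 1000. Distal regions of the set had a match in 16.2% at scores of 540 to 599, 14.1% at 600 to 699 and 16.7% at 700 to 799. Shared distal regions in the same bins gave 3.90, 5.11 and 4.15%, and vehicle-only distal regions 6.79, 9.29 and 17.1%, so that the set was not above vehicle-only regions at 700 to 799. Above 800 the numbers were small, with matches in 5 of 46, 1 of 23 and 2 of 11 distal regions of the set.

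AP-1 was rarer in the 560 regions than in shared regions, a difference seen in distal regions and not at start sites. The AP-1 letters TGACTCA or TGAGTCA occurred in 98 of the 560 regions, or 17.5% (14.6 to 20.9%), against 16.5% of vehicle-only, 27.1% of shared and 27.5% of all vehicle regions. Among distal regions the share was 20.8%, against 17.7% of vehicle-only and 48.1% of shared regions. The distal difference was -27.3 points from shared regions (-31.0 to -23.0) and 3.09 points from vehicle-only regions (-1.75 to 8.10), an interval that includes 0. At start sites the share was 7.75% against 6.43% of shared regions, a difference of 1.31 points (-2.10 to 6.93). Over all 560 regions the difference from shared regions was -9.56 points, and it was -5.83, -4.37 (-8.22 to 0.219, which includes 0) and -6.05 points in the first 3 settings named for CTCF. In these settings the AP-1 difference from vehicle-only regions was -4.61 points (-9.19 to -0.197), -8.37 points (-14.2 to -2.30) and -3.24 points (-5.89 to -0.668). Distal regions kept in the TGFβ list but missing at 10 min held AP-1 in 41.4%. The distal windows of the set moved by 10 kb gave 6.70%, so the 560 regions were above that level while being below shared regions. In each score bin up to 899 the distal share stayed between 19.0 and 19.7%, whereas shared distal regions gave 42.8 to 47.6%. In the bin of 900 to 999 the share was 47.8% of 23 regions, close to the 50.1% of shared regions, and at the cap of 1000 it was 2 of 11 (18.2%) against 52.6%.

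The SMAD letters GTCTAGAC or CAGACA were found in 29.6% of the 560 regions, against 32.3% of vehicle-only, 27.4% of shared and 28.7% of all vehicle regions. These letters are short and frequent in the genome, and the moved windows of the set held them in 33.2%. Among distal regions the share was 30.6%, or 5.43 points below shared regions (-9.78 to -0.739) and close to the 34.0% of the moved windows. TEAD letters (ACATTCCA, ACATTCCT, GCATTCCA or GCATTCCT), bound by the partners of YAP and TAZ, occurred in 13.4% of distal regions of the set, 13.3% of vehicle-only and 15.0% of shared ones. RUNX letters (TGTGGTT) were in 11.7% of distal regions against 17.8% of shared ones, a difference of -6.08 points (-8.95 to -2.55). The E-box CAGGTG, a site of ZEB, SNAIL and other E-box factors, was in 29.7% of distal regions against 23.3% of shared ones, a difference of 6.41 points. Vehicle-only distal regions gave 29.3%, and the moved windows held these letters in 25.8% for the set and 25.6% for shared regions. These 6 letters can lie inside a CTCF match, as they do in 13 of the 68 matches, the Pak4 and Bcorl1 sequences above included. Without regions that held a CTCF match the E-box difference was 6.48 points (1.91 to 11.5). Of 19 motifs searched, the distal share differed from shared regions for 5 (CTCF, AP-1, SMAD, RUNX and the E-box) and from vehicle-only regions for CTCF alone, by intervals that exclude 0 and were not adjusted for the number of motifs.

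The other 14 motifs gave no distal difference of that kind from either set. They were ETS (ACCGGAAGT, 1 mismatch allowed), TEAD, HNF1 (1 mismatch allowed), GRHL (AACCGGTT), NFI (1 mismatch allowed), FOX (TATTTAC or TGTTTAC), CREB (TGACGTCA), SRF, STAT5 (TTCNNNGAA), the E-box CACGTG, SP/KLF (GGGGCGGGG), NRF1 (1 mismatch allowed), YY1 (AAGATGGCG) and NFY (CCAAT). Every motif was searched on both strands. Of the 560 regions, 242 held none of AP-1, SMAD, ETS, CTCF and TEAD, 94 held SMAD alone, 59 AP-1 alone and 36 CTCF alone.

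For comparison with the CTCF sequences, 3 windows of 151 bp at the centre of regions with other matches follow, on the plus strand of the same reference. The Tmem26 region was 1 of 2 distal regions with AP-1 at the vehicle score cap of 1000 (capitals mark TGAGTCA). Its 10 min score of 888 was above the 829 of the other, at Vav2. The Id2 region lay nearest to an early TGFβ target gene (capitals mark CAGACA). The Ctnnb1 region was intergenic and lay nearest to the β-catenin gene of adherens junctions, 158008 bp from its start (capitals mark CAGACA in 2 places).
Tmem26, chr10:68360326-68360476: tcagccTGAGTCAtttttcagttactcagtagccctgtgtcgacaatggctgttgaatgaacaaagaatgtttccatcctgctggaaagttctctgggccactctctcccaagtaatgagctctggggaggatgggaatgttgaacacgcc
Id2, chr12:25825124-25825274: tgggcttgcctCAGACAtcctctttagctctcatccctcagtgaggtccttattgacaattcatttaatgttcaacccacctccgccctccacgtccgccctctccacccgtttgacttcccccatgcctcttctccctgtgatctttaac
Ctnnb1, chr9:120680125-120680275: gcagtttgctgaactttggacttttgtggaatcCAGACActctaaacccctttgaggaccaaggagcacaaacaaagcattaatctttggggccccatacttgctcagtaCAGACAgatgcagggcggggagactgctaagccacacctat

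The second feature that the selection did not use is the position relative to genes. A transcript start lay within 1000 bp of 142 of the 560 regions, or 25.4% (21.9 to 29.1%). This share lay between those of vehicle-only regions, at 12.8%, and shared regions, at 50.5%. The differences were 12.6 points (8.25 to 17.0) and -25.1 points (-28.6 to -21.3). Another 23 regions overlapped an exon, 159 (28.4%) lay in introns and 236 (42.1%) were intergenic. Among the 418 distal regions the nearest transcript start was at a median of 13918 bp, against 15896 bp for vehicle-only and 18561 bp for shared regions. The difference from shared regions at start sites depended on the settings. With peaks at or above each list's median score it was 0.982 points in place of -25.1. It was -8.29 points (-12.7 to -3.36) at vehicle scores under 700 and -8.50 points (-11.8 to -5.23) with a minimum width of 300 bp. With no TGFβ interval of any width within 1000 bp it was larger, at -30.1 points (-33.7 to -25.9).

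**Figure D3:**
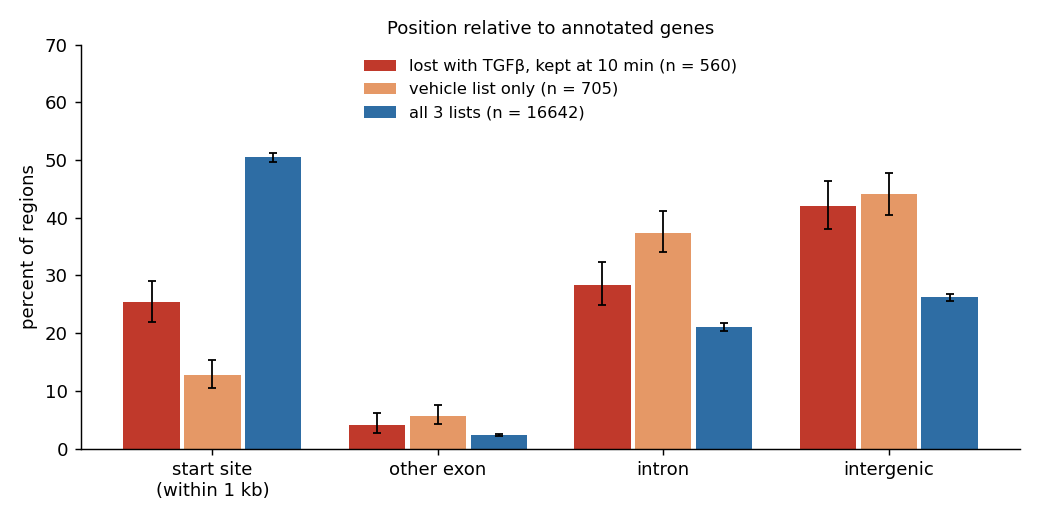
Share of regions (vertical axis, percent) at a transcript start, in another exon, in an intron or between genes for the 560 regions, vehicle-only regions and shared regions; bars start at 0 and whiskers are 95% Wilson intervals. The 560 regions lie between the other sets at start sites, with 25.4% against 12.8% and 50.5%.

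Many of the 142 regions at start sites were beside the start rather than on it. The start lay inside the region in 89 of them (62.7%, 54.5 to 70.2%), against 91.4% of shared regions at start sites. Shared regions were wider, with a median of 466 bp against 249 bp over all regions of each set, and the part of width was not tested. In 42 (29.6%) the 1000 bp around a start also held a TGFβ region, so that the promoter was not without accessible chromatin in the TGFβ list. Starts on both strands were found in 7.75% of the 142 regions, against 7.78% of vehicle-only and 19.3% of shared regions at starts. The ratio of observed to expected CpG, high in CpG island promoters, had a median of 0.633 in the 142 regions, against 0.434 in vehicle-only and 0.816 in shared regions at starts. Shares of the promoter motifs named here lay in the same order, but for none did the intervals exclude 0 on both sides. SP/KLF letters were in 20.4% against 8.89% of vehicle-only and 24.7% of shared regions. The difference was 11.5 points from vehicle-only regions (1.90 to 20.1) and -4.23 points from shared regions (-10.1 to 3.19). ETS letters were in 8.45% against 3.33% of vehicle-only and 18.4% of shared regions, and NRF1 letters in 8.45% against 4.44 and 15.3%. NFY letters were in 28.9% against 26.7 and 41.2%. For ETS, NRF1 and NFY the interval of the difference from vehicle-only regions included 0.

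The 8 regions at coding starts with the highest vehicle scores differed in how far they lay from a TGFβ region. The region of Sfswap, a regulator of splicing, at chr5:130006810-130007179 had a vehicle score of 1000 and a 10 min score of 1000. It held the start, and it overlapped a TGFβ interval under 150 bp that the refinement had dropped. The region of Ndufaf3, an assembly factor of mitochondrial complex I, at chr9:108469209-108469431 had both scores at 1000 and lay 204 bp from a TGFβ region. The region of Hist1h4j at chr13:21825998-21826246 scored 1000 and 915, also overlapped a dropped TGFβ interval, and lay 556 bp from a TGFβ region. In these 3 cases the loss therefore went with a TGFβ interval at or near the same promoter. The region of Cope, a coatomer subunit, at chr8:72826594-72826743 scored 983 and 1000, overlapped a dropped interval and lay 73 bp from a TGFβ region. The region of Ltv1, needed for assembly of the small ribosomal subunit, at chr10:12912162-12912700 scored 908 and 1000 and lay 152 bp from one. The remaining 3 of the first 8, at Gm15401, Efhb and Acin1, lay 8089, 15350 and 2261 bp from a TGFβ region, with vehicle scores of 961, 921 and 910 and 10 min scores of 658, 610 and 588. Starts of ribosomal protein genes, here Rpl11, made up 0.704% of the start-site regions against 0.942% of all vehicle regions at starts, and mitochondrial ribosomal protein genes 2.11% (Mrpl33, Mrpl52 and Mrps18a) against 0.737%, families chosen after the values were seen.

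The scores and widths entered the selection indirectly and are given as a description. The vehicle score of the 560 regions had a median of 664 and quartiles of 591.8 and 763, against medians of 612 in vehicle-only and 951 in shared regions. Only 14 regions (2.50%) were at the cap of 1000, where 38.2% of all vehicle regions stood. In the 10 min list the regions beneath them had a median score of 700.5, which was below the median of 818 of all 10 min regions. The median width was 249 bp, between 150 and 906 bp, against 466 bp in shared regions, and 292 regions (52.1%) consisted of a single peak. The 560 regions were thus among the weaker and narrower calls of the vehicle list, near the score limit below which peaks are not listed.

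The share of vehicle regions without a TGFβ counterpart fell with the score. It was 24.1% at scores of 540 to 599, 14.3% at 600 to 699, 7.21% at 700 to 799, 3.99% at 800 to 899, 2.21% at 900 to 999 and 0.240% at 1000. The share of these lost regions that the 10 min list held went the other way, from 35.4% (31.2 to 39.8%) in the lowest bin to 50.5% at 700 to 799 and 71.6% (61.8 to 79.7%) at 800 to 899. The last 2 bins gave 63.0% of 46 and 77.8% of 18 lost regions. The set held 168, 186, 95, 68, 29 and 14 regions in the 6 bins.

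**Figure D4:**
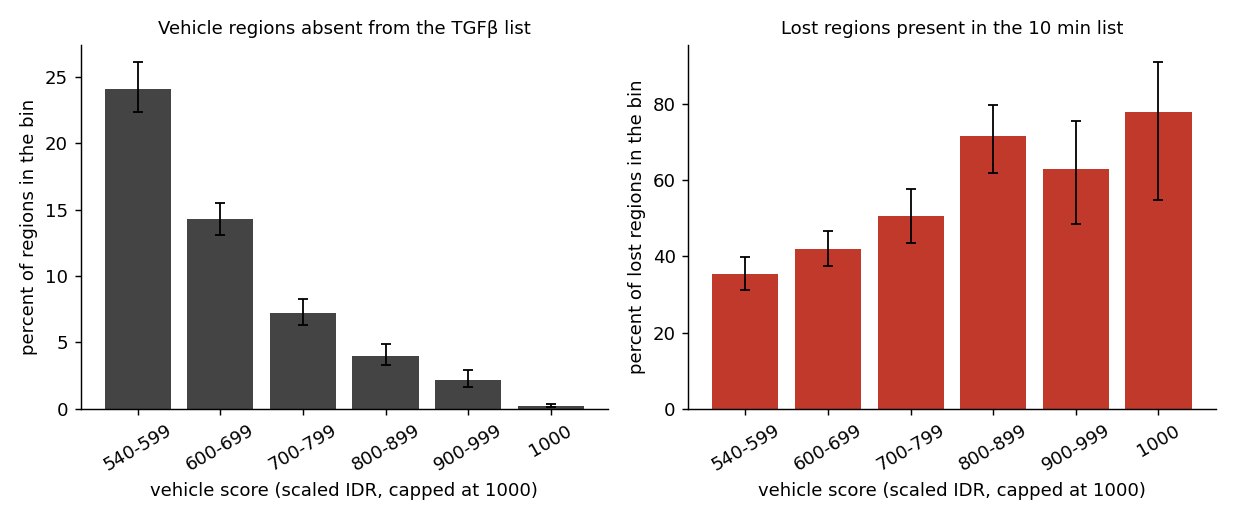
Left, percent of vehicle regions absent from the TGFβ list, and right, percent of those lost regions present in the 10 min list, both by vehicle score (horizontal axis, scaled reproducibility score capped at 1000); whiskers are 95% Wilson intervals. Loss falls from 24.1 to 0.240% while presence at 10 min rises from 35.4 to 77.8%.

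Each of the 560 regions met exactly 1 region of the 10 min list, and no 10 min region was met by more than 1 of them. The overlap was not marginal. It had a median of 227 bp, the 10 min list covered over 50% of the length in 541 regions (96.6%), and it covered 289 (51.6%) whole. The 10 min region was wider in 435 of the 560, with a median ratio of 1.35. The smallest overlaps were 56 bp at Patz1, 82 bp at Rpl11 and 110 bp at Gm6657. Just outside the rule, the vehicle-only regions nearest to a 10 min region were 78 bp away at Mafg, 93 bp at March4 and 99 bp at Ppp5c.

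Absence from the TGFβ list was less sharp. The gap to the nearest TGFβ region had a median of 7172 bp and quartiles of 2086 and 18084 bp, shorter than the median of 11079 bp in vehicle-only regions. It was under 100 bp in 26 regions (4.64%), against 5 (0.709%) of vehicle-only regions. Within 1000 bp 88 regions (15.7%) had a TGFβ region, and within 5000 bp 227 (40.5%). A further kind of partial absence was a TGFβ interval under 150 bp that the refinement had dropped, which 53 regions (9.46%) overlapped. In 71 cases (12.7%) the 10 min region beneath also overlapped a TGFβ region next to the vehicle region. For 426 regions, or 76.1% (72.4 to 79.4%), no TGFβ interval of any width overlapped and no TGFβ region lay within 1000 bp. In these the 10 min region beneath also met no TGFβ region. The 5000 bp limit was not part of this count.

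The regions of the set nearest to the limit lay 3 bp from a TGFβ region at Mex3a, 6 bp at Samd14 and 19 bp at Mfsd10. On the other side, the vehicle regions with the smallest overlap with a TGFβ region were those at Snrpd2, with 23 bp, Samd5, with 50 bp, and 2900026A02Rik, with 52 bp. With no TGFβ interval of any width allowed within 1000 bp, 419 regions were left, of which 12.2% held a CTCF match, 19.1% an AP-1 match and 20.3% a start site. The CTCF and AP-1 shares were thus close to those of all 560.

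**Figure D5:**
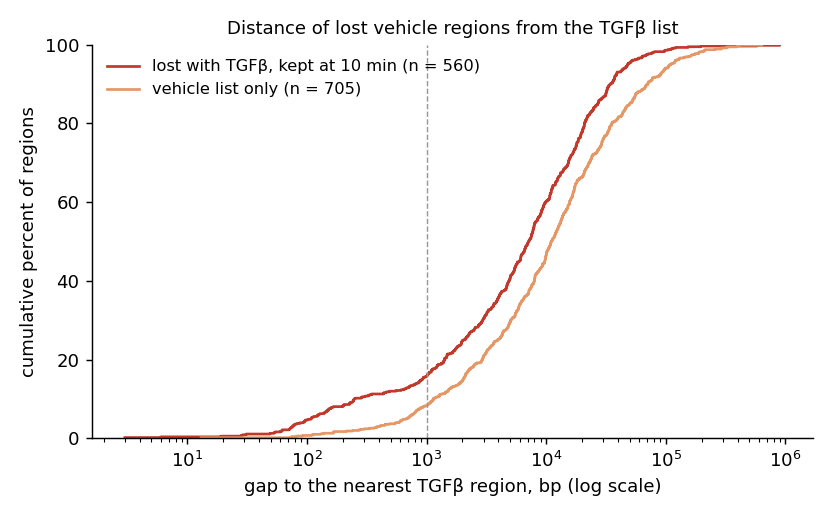
Cumulative percent of regions (vertical axis) by gap to the nearest TGFβ region (horizontal axis, bp, log scale) for the 560 regions and the 705 vehicle-only regions; the dashed line marks 1000 bp. The 560 regions start earlier, with 15.7% within 1000 bp, and reach 50% at a gap of 7172 bp against 11079 bp.

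Away from start sites, 3 of the regions at the highest score are given with their positions. The region nearest to Rfng, which encodes a glycosyltransferase that modifies Notch, at chr11:120637440-120637757 was intergenic, scored 1000 in both lists and lay 7681 bp from a TGFβ region. The region nearest to Aim1 at chr10:43791020-43791232 also scored 1000 in both lists, 7522 bp from a TGFβ region and 66368 bp from the nearest coding start. The Tmem26 region at chr10:68360207-68360594, which holds the AP-1 match shown above, scored 1000 and 888 and lay 4929 bp from a TGFβ region. It was 173635 bp from the nearest coding start. All 3 were covered whole by the 10 min list. The widest regions lay at starts. They were a region of 906 bp at Nrp1, a co-receptor of semaphorins and VEGF (chr8:130882522-130883427, 984 bp from a TGFβ region), one of 813 bp at 4930553M12Rik and one of 767 bp at Syt14, a synaptotagmin family gene.

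The 560 regions had 546 different nearest protein-coding genes. No gene had 3 or more, and 14 genes had 2, among them Ccnd1, the cyclin D1 gene, with regions 82031 bp apart, Foxa2, a forkhead factor gene, and Ido2. By chromosome the share of vehicle regions in the set ran from 1.68% on X to 3.47% on 10 and 11, with overlapping intervals.

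Genes of TGFβ signalling and epithelial identity were about as rare among the nearest genes as in the vehicle list as a whole. Of 237 genes in 12 lists, 14 were the nearest coding gene of a region in the set, with 1 region each, or 2.50% of the 560 regions against 2.97% of all vehicle regions. Feedback and early targets of TGFβ had 2 regions (0.357% against 0.361% of all vehicle regions), at Smad7, the inhibitory SMAD, and Id2, an inhibitor of basic helix-loop-helix factors. Ligands, receptors and SMADs had 1 (0.179% against 0.341%), at Inhba, the activin A subunit gene. Junction and adhesion genes had 2 (0.357% against 0.260%), at Tjp1, which encodes the tight junction protein ZO-1, and Ctnnb1. The AP-1 family had 2 (Fosb and Mafg, 0.357% against 0.188%), and mammary epithelial factors had 2 (Klf5 and Nfib, 0.357% against 0.249%). MAPK immediate-early and feedback genes had 2 (Dusp4 and Egr3, 0.357% against 0.478%), insulin and growth factor signalling 2 (Foxo1 and Igf1r, 0.357% against 0.244%) and mesenchymal genes 1 (Sparc, 0.179% against 0.173%). The lists of EMT transcription factors, ETS factors, YAP-TEAD genes and cohesin and CTCF genes had none. All vehicle regions gave 0.214, 0.229, 0.214 and 0.0713% for these lists, so few or none would be met among 560 regions.

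These 14 regions were mostly weak calls, at distances of 98 to 267285 bp from the coding start. The Smad7 region at chr18:75544503-75544949 lay in an intron, 9935 bp from the start. It had a vehicle score of 609 and a 10 min score of 968, and a TGFβ region was 841 bp away. The Id2 region at chr12:25825031-25825367 was intergenic, 44074 bp from the start, with scores of 702 and 727, and its nearest TGFβ region was 7675 bp away. The Inhba region was the strongest of the 14 in the vehicle list, with a score of 928 and 578 at 10 min, 267285 bp from the start. The Nfib region, in an intron of this nuclear factor gene, scored 906 and 665. At the other end the Tjp1 intron region scored 582 and 704, 4572 bp from the start and 32535 bp from a TGFβ region. The Mafg region lay at the start of the gene, which encodes a small MAF partner, scored 573 and 796 and was 31 bp from a TGFβ region. The Klf5 and Egr3 regions, nearest to a Krüppel-like factor and an immediate-early zinc finger gene, were 53 and 76 bp from one. The Dusp4, Foxo1, Ctnnb1 and Fosb regions had vehicle scores of 724, 657, 634 and 574 and 10 min scores of 770, 660, 896 and 961. In 12 of the 14 regions the 10 min score was above the vehicle score. The same held for 323 of all 560 regions (57.7%) and for 38.4% of shared regions. The part of depth in the scores of separate lists was not tested.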

How the data were processed

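ATAC-seq was done on NMuMG cells. According to the study's methods, reads were mapped to mm9 with the ENCODE ATAC-seq pipeline and peaks were called with MACS2 2.1.2. By the same methods, peaks reproducible between duplicates were kept, though what the duplicates were is not settled for these samples. The submitters' processing notes also name deepTools. The deposited lists give intervals and, as the only measurement used, the authors' peak score, a scaled irreproducible discovery rate. The lists held 48339 (vehicle), 87916 (TGFβ) and 75736 (10 min) peaks, which gave 19648, 38532 and 26732 regions. The lists carry no read counts. The study's reporting summary gives the read depth of the libraries, which was not used here, and the effect of depth on absence was not tested.

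Intervals under 150 bp were dropped, gaps under 1000 bp joined, and each region was given its best peak's score. Overlap needed 1 bp. All intervals lay within the NCBIM37 reference, annotated with GENCODE vM1. A region within 1000 bp of a transcript start counted as at a start, and the others as distal. The motif search covered either strand of 200 bp to each side of a region's centre, and the same windows moved by 10 kb. Shares have 95% Wilson intervals and differences Newcombe intervals. With 1 list per condition and no counts, no test was made. Overlap, motif search and intervals were tested on simulated data. Python 3.11.15, numpy 2.4.6 and matplotlib 3.10.9 were used.

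The regions and gene lists were chosen with earlier results of these data known. Named regions are the 6 with the highest vehicle score, the 3 widest, the 8 highest at coding starts, the 6 highest with a CTCF match, those nearest to listed genes (values for 12), the 3 nearest to a TGFβ region and the 3 least overlapped at 10 min. Alternatives changed the width, merging, overlap, score and list length, the start and motif windows and the mismatches.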

Additional observations from a re-analysis of the deposited data

How the results depend on the processing

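No paired analysis was possible because 1 list stood for each condition. 16 alternatives were run, 2 of them chosen after seeing the data (no TGFβ interval of any width within 1000 bp, and vehicle scores under 700), and gave 132 recomputed values. Of 66 recomputed differences in shares, 57 kept their sign. With a minimum width of 300 bp there were 970 regions, of which 47.2% were at a start and 2.99% held CTCF; CTCF differed by -2.85 points from vehicle-only and 1.83 from shared regions, and AP-1 by -4.61 and -5.83. With peaks at or above each list's median score there were 322 regions, of which 68.3% were at a start (0.982 points from shared regions) and 1.55% held CTCF (-2.05 points from vehicle-only and 0.497 from shared regions), and AP-1 differed by -8.37 and -4.37 points. With the TGFβ list cut to the length of the vehicle list there were 3098 regions, with 35.7% at a start, 6.39% with CTCF (-0.193 and 4.94 points) and 21.8% with AP-1 (-3.24 and -6.05 points). All 3 settings remove TGFβ regions, which changes which vehicle regions count as absent. The first 2 also remove intervals from the vehicle and 10 min lists. The part of these changes in the differences was not tested. With only overlapping or touching intervals merged, 38.3% were at a start, 9.07% held CTCF (6.96 points above shared regions and 1.70 from vehicle-only regions, -1.03 to 4.45) and 14.0% AP-1. The share at a start was 21.0% with no TGFβ region within 1000 bp, 20.3% with no TGFβ interval of any width there and 20.2% with a start window of 200 bp. The CTCF difference from vehicle-only regions also had an interval including 0 with no TGFβ region within 1000 bp (3.42 points), with 50% of the region covered at 10 min (2.94) and with motif windows of 100 bp (2.41). Motif windows of 100 bp put AP-1 at -5.85 points from shared regions, and windows of 500 bp put the AP-1 share at 24.1%. With 1 mismatch CTCF stood at 30.9%, 22.0 points above shared regions. The AP-1 difference from shared regions was -27.3 points in distal regions and -16.0 points at scores under 700. A region missing from a list may be below its score limit, and the effect of depth on the counts was not tested.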
